A study of Arabidopsis thaliana with 46 samples.

Results

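The nitrogen (N) response of root cells carrying an empty vector was measured in 6 of the 46 RNA-seq libraries of the series, 3 named EV_60N and 3 named EV_0N, and was examined across the 18342 genes with enough counts to test, of 33016 genes in the count tables. The libraries were chosen by their labels, not by any measured value. All 6 came from root protoplasts of Arabidopsis thaliana Col-0 seedlings grown for 10 days. The cells had been transfected with the empty vector (EV), a plasmid with a glucocorticoid receptor domain and a fluorescent marker but no transcription factor, and were sorted on that marker. EV_60N cells received 20 mM KNO3 plus 20 mM NH4NO3, and EV_0N cells received 20 mM KCl. Both groups were also given 35 µM cycloheximide (CHX), which stops translation, and 10 µM dexamethasone (DEX). The comparison asks which transcripts respond to N when new protein is not made. The N was added before the inhibitor, so protein made between the additions was not blocked.

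Other groups serve only for comparison. TGA4_60N and TGA4_0N (3 libraries each) had the same media, CHX and DEX, but the cells carried the bZIP transcription factor TGA4 fused to the receptor domain. Protoplast_60N and Protoplast_0N (4 libraries each) were EV-transfected protoplasts with the same 60N and KCl media and neither CHX nor DEX, harvested in a separate experiment. EV_5N cells had 5 mM KNO3 with CHX and DEX. Replicates of the N-dose experiment were wells filled from a transfected pool, so p-values measure the spread between wells, which may be technical. A sorted pool is bulk RNA, in which fewer cells of a type and less RNA per cell cannot be told apart.

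Nitrate acts in roots as both nutrient and signal. NIN-like proteins (NLPs) switch on a first wave of genes without new protein synthesis, among them the nitrate reductases NIA1 and NIA2, the plastid nitrite reductase NIR1, the plastid enzymes that supply it with electrons, and repressors of the LBD and GARP families that later damp the response. Cycloheximide itself raises many unstable transcripts, so a response measured in its presence is a change on top of that state.

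The libraries held 9554454 to 16214169 counts in EV_60N and 10309335 to 11418459 in EV_0N. No pair of the 6 agreed within sampling noise. Markers of green tissue, which root protoplasts should lack, summed to 1.69 to 2.64 CPM in EV_60N and 2.13 to 3.33 CPM in EV_0N (CPM, counts scaled to library size with TMM factors), and 1 of those 7 markers was at 0 in all 6 libraries. None of the tested markers of root hair, endodermis, stele, phloem, root cap or dividing cells was called between the groups with all libraries, while 1 endodermis and 1 root cap marker were lower in EV_60N when its replicate 1 was left out. The root hair markers summed to 14.4, 10.2 and 20.4 CPM in EV_60N replicates 1, 2 and 3 and to 12.7, 22.4 and 63.8 CPM in EV_0N replicates 1, 2 and 3. That sum was mostly RHD6, a root hair regulator, with 58.7 CPM in EV_0N replicate 3. Each of the other 4 markers had at most 2.52 CPM in any of the 6 libraries, so the sum says little about the markers as a class. RSL4, a root hair regulator outside the marker list, had 13.5 CPM in EV_0N replicate 3 and 1.79 to 4.85 CPM in the other 5 libraries. Whether the cells of this library differed in type was not tested. EV_0N replicate 3 was more than 2-fold above each of the other 5 libraries for 50 of 15679 genes, against 0 to 12 such genes in each of those 5. In the other direction, EV_60N replicate 2 was more than 2-fold below each of the other 5 for 34 genes. EV_60N replicate 3 was so for 14 genes, and each remaining library for 1 to 3. Replicates 2 and 3 of EV_60N were therefore not free of deviations of their own.

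The library labelled EV_60N replicate 1 went against its label for nitrate-induced genes. NIR1 had 12.5, 153 and 123 CPM in EV_60N replicates 1, 2 and 3, and 8.35, 9.69 and 12.7 CPM in EV_0N. Replicate 1 therefore lay within the EV_0N range for NIR1, whereas replicates 2 and 3 were far above it. The check was extended to genes called between libraries other than these 6. The Protoplast fit held none of the 6, while the TGA4 fit used them for its filter, scaling and spread. Over 100 genes at least 2-fold higher in TGA4_60N, the median shift from the EV_0N mean (log2) was 0.05 in EV_60N replicate 1, 1.40 in replicate 2 and 1.39 in replicate 3. Over 89 genes at least 2-fold higher in Protoplast_60N, the median shift was -0.06, 1.51 and 1.39 in the same order. Over 64 genes at least 2-fold lower in TGA4_60N, it was -0.07, -0.85 and -0.98. With smaller changes included, replicate 1 did not lie at the EV_0N level. Over all 331 genes higher in TGA4_60N the shifts were 0.28, 0.64 and 0.85, with replicate 1 above all EV_0N libraries for 61.3% and below them for 15.4%. Over all 318 genes higher in Protoplast_60N they were -0.26, 0.54 and 0.37, with replicate 1 above for 10.1% and below for 56.3%. Over the 225 genes lower in TGA4_60N they were -0.13, -0.54 and -0.69, and over the 175 lower in Protoplast_60N 0.33, -0.44 and 0.07. Over all tested genes the shift was -0.01, 0.01 and -0.02. Over the genes changed at least 2-fold the EV_5N libraries lay between, at 0.68 to 0.88 over the genes higher in TGA4_60N, 0.59 to 0.70 over those higher in Protoplast_60N and -0.51 to -0.30 over those lower in TGA4_60N. Replicate 1 was kept in its group, since its label gives EV_60N, and counts of calls and the fold changes of leading genes are given with and without it. Why it differs was not tested.

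**Figure D1:**
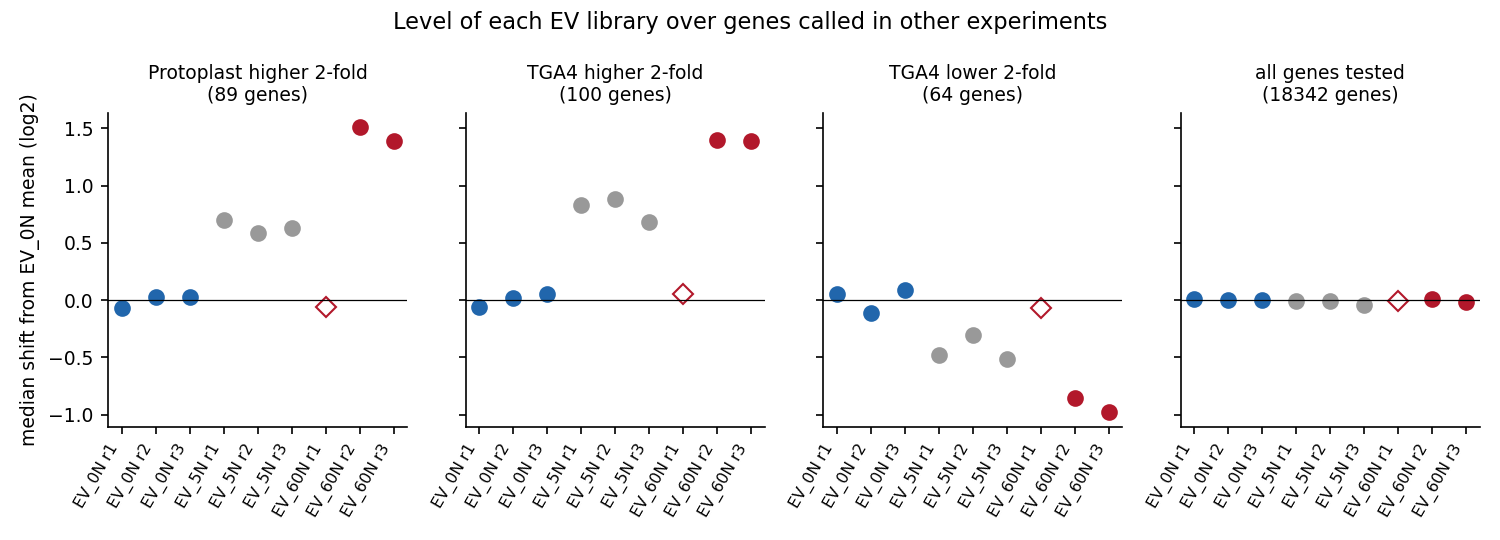
Median log2 shift of each EV library (x axis, in order of N dose, r1 to r3 being replicates) from the EV_0N mean over genes called and changed at least 2-fold in the Protoplast or TGA4 comparison and over all genes tested. EV_60N replicate 1 (open diamond) lies at the level of EV_0N in the first 3 panels, near 0, while EV_60N replicates 2 and 3 lie at 1.39 to 1.51 over the induced genes.

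Across the genome, 421 genes were higher and 238 lower in EV_60N than in EV_0N, which is 2.3% and 1.3% of the genes tested (edgeR quasi-likelihood test over the 18 libraries of the N-dose experiment, Benjamini-Hochberg adjusted p under 0.05). Of these, 119 and 74 changed at least 2-fold. Without EV_60N replicate 1 the counts were 532 higher and 472 lower, 2.85% and 2.53% of 18659 genes, and 532 genes (344 higher, 188 lower) were called both ways. The EV_60N and EV_0N values did not overlap for 354 of the 421 genes called higher and for 228 of the 238 called lower. The same held for 1697 and 1636 of all genes tested. An unadjusted p under 0.05 was reached by 2951 genes. The count rests on a spread estimated over all 6 groups of the experiment. In a fit on the 6 EV_60N and EV_0N libraries alone, 35 genes were called (29 higher, 6 lower), none of them in the nitrate lists described next, and leaving out EV_60N replicate 3 gave 131 calls (93 higher, 38 lower) in the 18-library design. Leaving out EV_60N replicate 2 gave 717 higher and 267 lower.

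Of the 10 measured genes of nitrate reduction, 5 were higher in EV_60N, none was lower, and the median log2 fold change was 0.39, beside -0.01 over all tested genes. Without replicate 1, 6 were higher and the median was 0.54. Over all genes tested, 2.3% were higher and 1.3% lower, or 2.85% and 2.53% without replicate 1. These shares stand beside every list below. NIR1, at chr2:6810395-6812941 (TAIR10.1), was 3.23 ± 0.50 higher on the log2 scale (SE, adjusted p = 0.0014), and 3.74 ± 0.18 without replicate 1. NIA1, a nitrate reductase, had 14.1, 171 and 90.8 CPM in EV_60N and 11.7, 9.69 and 18.7 CPM in EV_0N, a log2 fold change of 2.79 ± 0.48 (adjusted p = 0.0031), or 3.30 ± 0.23 without replicate 1. The values of the groups overlapped through replicate 1 only. NIA2, the major nitrate reductase, had 188, 723 and 594 CPM in EV_60N and 207, 220 and 198 CPM in EV_0N. Replicate 1 was below all EV_0N libraries while the others were far above them, and the log2 fold change was 1.27 ± 0.27 with all libraries and 1.66 ± 0.12 without it (adjusted p = 0.012 and 2.9e-08).

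Of the 7 genes in that list that make cofactors of these enzymes, 2 were called higher. UPM1, which makes the siroheme precursor that nitrite reductase needs, had 31.7, 114 and 123 CPM in EV_60N and 26.6, 26.2 and 25.4 CPM in EV_0N (log2 fold change 1.78 ± 0.28, adjusted p = 0.0017, and 2.18 ± 0.11 without replicate 1). Here the groups did not overlap, although replicate 1 exceeded the highest EV_0N library by little. B73, the CNX1 protein of molybdenum cofactor synthesis, was 0.45 ± 0.11 higher (adjusted p = 0.025), a call lost when counts were scaled by library totals alone (adjusted p = 0.10). CNX2, which catalyses the first step of that cofactor's synthesis, was called only without replicate 1 (0.41 ± 0.12, adjusted p = 0.047). The other 4, CNX3, CNX5, CNX7 and AT2G43760, had log2 fold changes of -0.03 to 0.26 and were called neither with nor without replicate 1. Of the 5 calls in the list, UPM1, NIA1 and NIR1 held whichever of the 6 EV_60N and EV_0N libraries was left out. NIA2 lost its call without EV_0N replicate 3 or EV_60N replicate 3. B73 lost its call without EV_0N replicate 1, 2 or 3 or EV_60N replicate 3.

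The nitrite reductase draws its electrons from the plastid oxidative pentose phosphate pathway through ferredoxin. Of 9 tested genes of this reductant supply, 4 were higher and none lower (median 0.80), and 8 were higher without replicate 1 (median 1.15). RFNR2, a root ferredoxin-NADP reductase, had 4.15, 56.8 and 51.4 CPM in EV_60N and 5.83, 6.89 and 8.61 CPM in EV_0N. G6PD3, a plastid glucose-6-phosphate dehydrogenase, had 6.6, 44.8 and 49.7 CPM in EV_60N and 8.99, 7.74 and 6.82 CPM in EV_0N. For both genes replicate 1 was below all EV_0N libraries. Their log2 fold changes were 2.41 ± 0.49 for RFNR2 and 2.11 ± 0.40 for G6PD3 (adjusted p = 0.0079 and 0.0063), and 2.93 ± 0.15 and 2.58 ± 0.15 without replicate 1. AT5G41670, a 6-phosphogluconate dehydrogenase family gene, was 1.83 ± 0.37 higher, and G6PD2 0.85 ± 0.23 (adjusted p = 0.0079 and 0.041). G6PD2 lost its call when counts were scaled by library totals alone (adjusted p = 0.081). RFNR1, the ferredoxin FD3, the phosphoglucose isomerase PGI1 and a further 6-phosphogluconate dehydrogenase, AT1G64190, were called only without replicate 1, at 0.64 to 1.15. None of the 4 calls in the list held without EV_60N replicate 3, where the fold changes were 0.71 to 2.14.

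**Figure D2:**
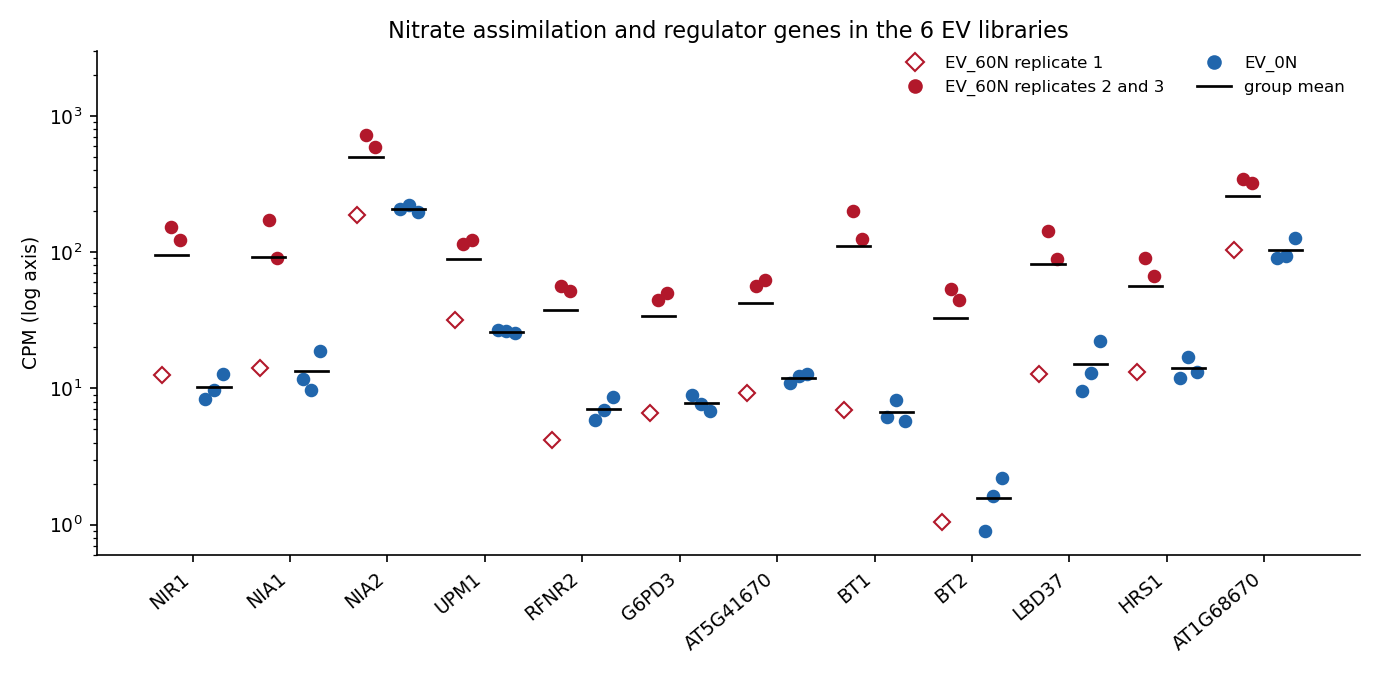
CPM (log axis) of 12 nitrate assimilation and regulator genes in each EV_60N library and, to the right of it, each EV_0N library, with group means as bars. EV_60N replicate 1 (open diamonds) sits at the level of EV_0N for most of the genes, while replicates 2 and 3 (filled) lie above all EV_0N libraries for all 12, with NIR1 at 153 and 123 CPM.

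Of 30 tested regulators of the N response, 7 were higher and 2 lower, beside 2.3% and 1.3% of all genes tested. Without replicate 1 the counts were 13 and 2, beside 2.85% and 2.53%. BT2, a BTB and TAZ domain scaffold protein encoded at chr3:17907767-17910738, had 1.04, 53.2 and 44.2 CPM in EV_60N and 0.891, 1.62 and 2.19 CPM in EV_0N (log2 fold change 4.40 ± 0.73, adjusted p = 0.0023). Its relative BT1 had 6.98, 200 and 125 CPM in EV_60N and 6.16, 8.16 and 5.76 CPM in EV_0N (4.06 ± 0.63, adjusted p = 0.0015). Without replicate 1 the changes were 4.95 ± 0.24 for BT2 and 4.61 ± 0.21 for BT1. LBD37, a repressor of N-responsive genes, had 12.7, 143 and 88.7 CPM in EV_60N and 9.56, 13 and 22.3 CPM in EV_0N (2.45 ± 0.48, adjusted p = 0.0066, and 2.96 ± 0.24 without replicate 1). LBD38 and LBD39 of the same family were called without replicate 1 (1.59 ± 0.25 and 1.97 ± 0.48). So were CDF1, a DOF factor (1.09 ± 0.15), NAC080 (1.04 ± 0.22), TGA4 (0.75 ± 0.12) and TGA1 (0.46 ± 0.12).

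The 4 HRS1 and HHO genes in the list, GARP-type repressors, all rose, and other members of the family were not examined. HRS1 had 13.2, 90 and 66.7 CPM in EV_60N and 11.9, 17.1 and 13.2 CPM in EV_0N (2.02 ± 0.38, adjusted p = 0.0057, and 2.48 ± 0.16 without replicate 1). AT1G68670 (HHO2) had 104, 344 and 324 CPM in EV_60N and 90.3, 93.9 and 127 CPM in EV_0N (1.31 ± 0.26, adjusted p = 0.0076, and 1.69 ± 0.13 without replicate 1). AT1G25550 (HHO3) had 286, 548 and 636 CPM in EV_60N and 272, 238 and 306 CPM in EV_0N (0.85 ± 0.19, adjusted p = 0.013, and 1.12 ± 0.12 without replicate 1). AT3G25790, another member, had 0.377, 2.44 and 0.741 CPM in EV_60N and 0, 0 and 0.081 CPM in EV_0N (adjusted p = 0.012), where 3 counts correspond to 0.243 to 0.255 CPM, so no fold is given. The 2 regulators that fell were NIN-like protein genes. AT3G59580 (NLP9) had 12, 9 and 6.25 CPM in EV_60N and 16.7, 17 and 19.9 CPM in EV_0N (-0.97 ± 0.22, adjusted p = 0.018), with no overlap even for replicate 1. AT2G43500 (NLP8) was at -0.52 ± 0.13 (adjusted p = 0.034). NLP7, the best-known NIN-like regulator of the nitrate response, had 61.2 to 69.7 CPM in EV_60N and 78.1 to 83.6 CPM in EV_0N and was not called (-0.29 ± 0.12, adjusted p = 0.19). AT4G38340 (NLP3), a NIN-like gene outside this list, went the other way and was called higher with all libraries (1.25, adjusted p = 0.013). BT1, BT2, LBD37 and HRS1 kept their calls whichever library was left out, and NLP9 lost its call without EV_0N replicate 3 or EV_60N replicate 3.

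Promoters of HRS1 and of 2 of its relatives carry the 8-base palindrome GAATATTC, which HRS1-type proteins bind, within 250 bases before to 50 after the gene start. The stretches are printed because the family binds such sites and its own genes responded (TAIR10.1, capitals mark the motif).
HRS1, chr1:4556631-4556660, plus strand: atcacattgcgGAATATTCaccactcacca
AT1G25550, chr1:8976334-8976363, plus strand: cacatatccccGAATATTCtccctgtatca
AT3G25790, chr3:9412903-9412932, plus strand: atcacatccagGAATATTCaccactggatc
AT3G59580, chr3:22009013-22009042, minus strand: taatggaggagaGACTCTTgagtttttttt
The last sequence is from the fallen gene NLP9 and holds GACTCTT, a match to GACNCTT, one arm of the nitrate-responsive element that NIN-like proteins bind. The motif centres lay at -232 in HRS1, 23 in AT1G25550, -134 in AT3G25790 and 19 in AT3G59580, counted from the gene start. Searched on both strands, GAATATTC was in 3.09% of the promoters of genes called higher, 1.26% of those called lower and 1.1% of all tested genes. GACNCTT was in 12.6%, 7.56% and 8.73% in the same order. TGACGT, bound by TGA factors, was in 11.4%, 10.9% and 9.75%, and the G-box CACGTG in 6.41%, 10.1% and 8.71%. Over the genes called without replicate 1, the HRS1-type palindrome was in 2.82% of promoters of higher and 0.851% of lower genes, the nitrate-responsive arm in 11.9% and 7.23%, the TGA motif in 10.7% and 9.57%, and the G-box in 8.47% and 7.23%. TGACGT and CACGTG both hold the letters ACGT, but the letters beside it differ, so a single ACGT stretch cannot match both motifs. A match is a description of the letters only.

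Of 17 tested nitrate transport genes, none was higher and 2 were lower (median -0.16), beside 2.3% and 1.3% of all genes tested. Without replicate 1, 2 were higher and 3 lower, beside 2.85% and 2.53%. NAXT1, a nitrate exporter, had 54.3, 24.3 and 27.6 CPM in EV_60N and 65.2, 87.2 and 74.6 CPM in EV_0N (-1.10 ± 0.21, adjusted p = 0.0060), with all 3 libraries below all EV_0N libraries, and -1.55 ± 0.16 without replicate 1. SLAH3, a slow anion channel that passes nitrate, had 53.7, 44.8 and 44.8 CPM in EV_60N and 72.4, 75.1 and 96 CPM in EV_0N (-0.77 ± 0.19, adjusted p = 0.025). NRT1.1, the dual-affinity transporter and nitrate sensor, had 8.96, 34.9 and 22.8 CPM in EV_60N and 14.4, 17.6 and 17.2 CPM in EV_0N, and was called only without replicate 1 (0.83 ± 0.19, adjusted p = 0.013). WR3, the NRT3.1 partner protein of high-affinity transporters, was also called only then (0.69 ± 0.13), as was the starvation-induced NRT2.5, with 50.5, 10.8 and 21.3 CPM in EV_60N and 49.3, 33.9 and 43.9 CPM in EV_0N (-1.44 ± 0.23 without replicate 1).

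Ammonium uptake and assimilation showed 1 call among 15 tested genes (median -0.11), beside 3.59% of all genes tested. AMT1;3, an ammonium transporter, had 4.24, 0.722 and 2.22 CPM in EV_60N and 4.46, 5.1 and 11.4 CPM in EV_0N (-1.64 ± 0.45, adjusted p = 0.045). Its highest value was in EV_0N replicate 3. Without EV_60N replicate 1, 2 of 16 members were higher and 4 lower, beside 2.85% and 2.53% of all genes tested. The NADH-dependent glutamate synthase GLT1 (0.69 ± 0.15) and the asparagine synthetase ASN2 (1.10 ± 0.25) were the higher ones. AMT2 (-0.49 ± 0.13), AMT1;3 and the glutamine synthetases GLN1;4 (-0.58 ± 0.16) and GSR 1 (-0.57 ± 0.15) were the lower ones. AMT1;1, another ammonium transporter, had 464 to 704 CPM in EV_60N and 538 to 699 CPM in EV_0N and was not called.

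Heat shock genes, a list with no place in nitrate assimilation, rose in EV_60N. Of 12 members, 7 were higher and none lower, with a median log2 fold change of 1.23, and without replicate 1, 10 were higher (median 1.55). AT5G48570, the FKBP-type co-chaperone ROF2, had 9.81, 38.6 and 38.8 CPM in EV_60N and 8.59, 6.63 and 9.01 CPM in EV_0N (1.85 ± 0.33, adjusted p = 0.0043, and 2.26 ± 0.19 without replicate 1). HSP101, a disaggregase, had 47.4, 108 and 107 CPM in EV_60N and 33.7, 45.3 and 34.9 CPM in EV_0N (1.20 ± 0.21, adjusted p = 0.0036, and 1.5 ± 0.14 without replicate 1). HSFA2, a heat shock transcription factor, had 13.4, 38.1 and 37.2 CPM in EV_60N and 11.8, 12.4 and 13.2 CPM in EV_0N (1.25 ± 0.26, adjusted p = 0.010, and 1.59 ± 0.17 without replicate 1). In each of the 3 genes replicate 1 lay just above the EV_0N libraries and well below replicates 2 and 3. The list's median was 1.17 in TGA4_60N against TGA4_0N and 1.52 in Protoplast_60N against Protoplast_0N, with 7 and 11 of 12 members higher. In EV_5N against EV_0N, which shares the EV_0N libraries, none was called and the median was 0.28. Without EV_60N replicate 3, 2 of the 7 calls held (AT5G48570 and HSP101). MBF1C and HSP18.2 were not called in EV_60N with or without replicate 1.

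The other lists held few calls with all libraries, where 2.3% of all genes tested were higher and 1.3% lower. Among 14 early stress genes, WRKY40, a WRKY repressor, was higher (0.51 ± 0.12, adjusted p = 0.019) and ERF104, an ethylene response factor, was lower, with 105 to 129 CPM in EV_60N and 182 to 196 CPM in EV_0N (-0.67 ± 0.14, adjusted p = 0.0085). Of 12 tested hypoxia genes, only HB1 was called. HB1 encodes a class 1 haemoglobin that removes nitric oxide. It had 3.96, 19.7 and 17.3 CPM in EV_60N and 3.89, 3.49 and 3.25 CPM in EV_0N (1.96 ± 0.43, adjusted p = 0.014, and 2.39 ± 0.32 without replicate 1). SUS4, a sucrose synthase of that list, was called without replicate 1 (0.77 ± 0.21) and with a replicate block (adjusted p = 0.038). Of 24 low-energy and dark-inducible genes, 1 was higher (AT5G38710, 0.59 ± 0.14) and none lower. Without EV_60N replicate 1, 4 were higher (TPS9, TPS10, DIN10 and AT5G38710) and 1 lower (bZIP44), beside 2.85% and 2.53% of all genes tested. With a replicate block AT1G80440 and AT1G15670, both at lower values in EV_60N, were also called (adjusted p = 0.023 and 0.049). AT1G80440 had 12.3, 11.2 and 16.3 CPM in EV_60N and 16.4, 21.7 and 62.5 CPM in EV_0N, so its difference rested largely on EV_0N replicate 3. None of 15 tested cytokinin genes, 11 sulfate genes or 8 phosphate starvation genes was called. The near-identical phosphate transporters PHT1;1 and PHT1;2, whose reads can be split wrongly between them, were lower without replicate 1 (-0.92 ± 0.20 and -0.91 ± 0.20), and PHT1;1 also with a replicate block (adjusted p = 0.027). Of 11 CC-type glutaredoxins 1 was tested, GRX480, at 0.45 ± 0.15 (adjusted p = 0.11).

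**Figure D3:**
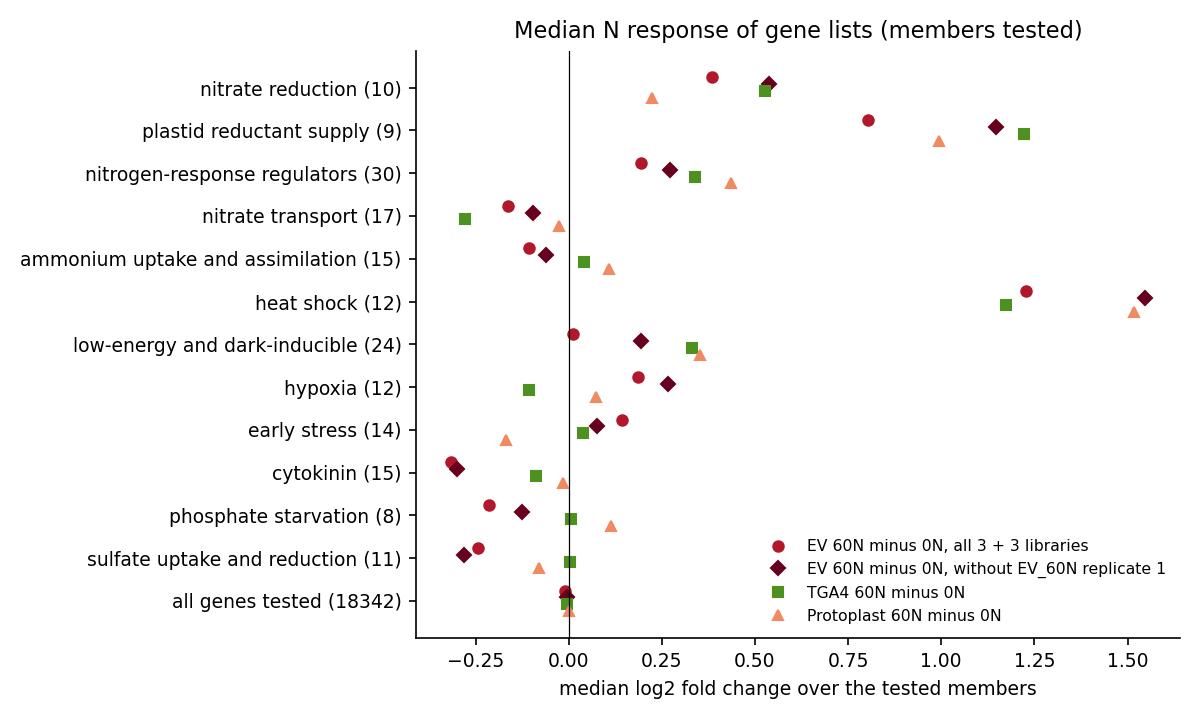
Median log2 fold change (x axis) of each gene list (y axis, members tested in brackets) for 60N minus 0N in EV with all libraries and without EV_60N replicate 1, in TGA4 and in Protoplast cells. Heat shock (1.23 in EV), plastid reductant supply (0.80) and nitrate reduction (0.39) lie farthest above all genes tested among lists with more than 1 gene tested, and each of these 3 EV medians is larger without replicate 1.

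The 12 genes with the highest log2 fold change among those called, with no overlap between groups and a mean of at least 2 CPM, differed in how EV_60N replicate 1 behaved. In 7 of them it was well below the other EV_60N libraries. AT5G62720, an integral membrane protein of the HPP family, some of whose members carry nitrite into plastids, had 1.23, 18.9 and 14.3 CPM in EV_60N and 0.243, 0.425 and 0.487 CPM in EV_0N (4.89 ± 0.73, adjusted p = 0.0011). A second HPP gene, AT3G47980, had 5, 14.3 and 9.95 CPM in EV_60N and 3.65, 2.3 and 3 CPM in EV_0N (1.73 ± 0.31, adjusted p = 0.0045). AT5G65980 (PILS7), a PIN-like auxin carrier family gene, had 5.19, 18.4 and 16.6 CPM in EV_60N and 1.7, 2.3 and 2.11 CPM in EV_0N (2.73 ± 0.35, adjusted p = 0.00036). HB1, UPM1, AT5G48570 and AT1G54050, a small heat shock protein family gene at 1.93 ± 0.31, were among these 7 too.

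In 4 others replicate 1 was at least as high as the lower of the other EV_60N libraries. AT1G05675, a UDP-glycosyltransferase, had 211, 185 and 318 CPM in EV_60N and 60.9, 46.3 and 71.2 CPM in EV_0N (2.0 ± 0.22, adjusted p = 0.00012). AT4G22030, an F-box gene, had 80.1, 55.1 and 121 CPM in EV_60N and 29.2, 22.7 and 21.8 CPM in EV_0N (1.79 ± 0.22, adjusted p = 0.00030). AT4G18540, a gene of unknown function, had 40.1, 13.2 and 33.7 CPM in EV_60N and 8.35, 6.8 and 9.5 CPM in EV_0N, with replicate 1 the highest of the 3 (1.79 ± 0.28, adjusted p = 0.0013). AT1G14260, a zinc finger gene (1.84 ± 0.31), was the remaining one. In the receptor-like protein gene RLP32 (1.67 ± 0.20) replicate 1 lay between, with 6.98, 10.2 and 9.85 CPM in EV_60N and 2.75, 2.64 and 3.09 CPM in EV_0N. AT1G05675, AT4G22030 and RLP32 were also among the 35 genes called on the 6 libraries alone. Of the 12 genes, 11 kept their call whichever library was left out, and HB1 lost it without EV_0N replicate 2 or 3 or EV_60N replicate 2 or 3.

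The 12 genes with the lowest log2 fold change, chosen by the same rule, all had their highest value in EV_0N replicate 3. ESE3, an AP2/ERF factor, had 3.11, 1.33 and 2.22 CPM in EV_60N and 4.7, 7.91 and 13.5 CPM in EV_0N (-2.01 ± 0.45, adjusted p = 0.015). WAG2, a protein kinase of auxin transport control, had 9.24, 6.61 and 9.85 CPM in EV_60N and 16.9, 21.4 and 41 CPM in EV_0N (-1.65 ± 0.30, adjusted p = 0.0045). MYB50 had 7.92, 2.06 and 5.08 CPM in EV_60N and 8.91, 10.1 and 33.1 CPM in EV_0N (-1.85 ± 0.49, adjusted p = 0.041). Apart from WAG2, which kept its call whichever library was left out, these calls rested on single libraries. Without EV_0N replicate 3 only WAG2 kept its call and the log2 fold changes of the 12 lay between -1.54 and -0.97. Without EV_60N replicate 2 or 3, 2 of the 12 kept theirs, and 9 did without EV_60N replicate 1. Without EV_0N replicates 1 and 2, 9 and 7 did. The 9 genes besides ESE3, WAG2 and MYB50 ran from -1.90 (AT5G62280) to -1.47 (AT5G12940). They included AMT1;3 and the serine carboxypeptidase-like gene scpl1 (-1.77 ± 0.40). AT1G06980 (-1.48 ± 0.41, adjusted p = 0.048) lost its call with a replicate block (adjusted p = 0.052). None of the 12 was called in TGA4_60N against TGA4_0N, and in Protoplast_60N against Protoplast_0N only MYB50 was (-0.69 ± 0.18, adjusted p = 0.048). Without EV_0N replicate 3 the whole comparison gave 369 calls (235 higher, 134 lower), and without EV_0N replicate 2 it gave 286 (176 higher, 110 lower).

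Genes with the smallest p without EV_60N replicate 1 were looked up after their values had been seen. AT5G10210 had 1.32, 94.1 and 43 CPM in EV_60N and 1.86, 1.87 and 0.568 CPM in EV_0N. DIN11, a 2-oxoglutarate-dependent oxygenase, had 0.471, 26.8 and 13.3 CPM in EV_60N and 0.972, 0.85 and 0.568 CPM in EV_0N. Replicate 1 was inside or under the EV_0N range for both, and both were called with it (adjusted p = 0.0017 and 0.0058). CIPK3, a calcineurin B-like interacting kinase, ATP-PRT1, the first enzyme of histidine synthesis, MDAR6, a monodehydroascorbate reductase, and AT4G38340 (NLP3) were 1.59 to 1.99 higher on the log2 scale without replicate 1. On the lower side SARD1, a regulator of salicylic acid synthesis, had 524, 208 and 218 CPM in EV_60N and 506, 452 and 500 CPM in EV_0N and was called only without replicate 1 (-1.19 ± 0.18, adjusted p = 0.00047). OPT2, an oligopeptide transporter, had 77, 37.7 and 52.2 CPM in EV_60N and 92.4, 122 and 105 CPM in EV_0N and was called both ways (-0.94 ± 0.19 with all libraries, adjusted p = 0.0075).

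The N response of EV cells was then set beside that of TGA4 cells, measured in other libraries. Both were contrasts in the same fit of the 18 libraries, so the filter, scaling and spread were shared. In TGA4_60N 331 genes were higher and 225 lower than in TGA4_0N (1.8% and 1.23% of genes tested). These lists, and the shared counts that rest on them, depended on single libraries. The total of 556 fell to 113 without TGA4_0N replicate 3, 157 without TGA4_0N replicate 2, and 161, 149 and 193 without TGA4_60N replicates 1, 2 and 3. The split turned to 228 higher and 299 lower without TGA4_0N replicate 1, and to 243 and 437 without TMM factors. Of the 421 genes higher in EV_60N, 182 were also called higher in TGA4_60N, 43.2% of the EV list and 55% of the TGA4 list. Of the 238 lower genes 64 were shared, 26.9% and 28.4%. Without EV_60N replicate 1 the shared genes came to 245 higher, 74% of the TGA4 list, and 127 lower, 56.4% of it. Of the 421 genes higher in EV_60N, 418 had a positive fold change in TGA4 cells, with a median of 0.57, and 223 of the 238 lower genes had a negative one, with a median of -0.50. The test of the difference between the responses called 0 genes (edgeR), with 676 at an unadjusted p under 0.05, or 605 without replicate 1. DESeq2 called 4, limma-voom with sample weights 1, and edgeR without the low-count filter 3. This does not show that the responses were alike. NIR1, for example, was 4.28 ± 0.54 higher in TGA4_60N than in TGA4_0N, with a difference of -1.05 between EV and TGA4 (adjusted p = 1).

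The N response of cells without CHX and DEX shares no library with the EV comparison and came from a separate fit. In Protoplast_60N 322 genes were higher and 184 lower than in Protoplast_0N (1.53% and 0.876% of 21007 genes). The total of 506 fell to 320, 310 and 274 without Protoplast_0N replicates 2, 3 and 4 and to 321 without Protoplast_60N replicate 3, and the split was 678 higher and 98 lower without TMM factors. Of 420 genes higher in EV_60N and tested in both experiments, 64 were also called higher in Protoplast_60N, 15.2% of the EV list and 20.1% of the Protoplast list, while 13 were called lower. Without replicate 1 the shared genes were 136, 25.7% and 42.8%. Of the genes lower in EV_60N, 7 of 237 were shared, and 39 of 470 without replicate 1. The median Protoplast log2 fold change over the 420 genes was -0.10, and 145 of them (34.5%) had a positive one.

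The genes split by how EV_60N replicate 1 behaved. For the 532 genes higher without replicate 1, the position of replicate 1 was taken on the log2 scale between the EV_0N mean (0) and the mean of EV_60N replicates 2 and 3 (1). In 179 genes replicate 1 was below 0.25, at or near the EV_0N level, and 123 of them (68.7%) were called higher in Protoplast_60N, with a median log2 fold change of 0.80. In 215 genes it was above 0.75, at the level of the other EV_60N libraries, and 3 of them (1.4%) were called in Protoplast_60N, with a median of -0.15. The 138 genes between gave 10 of 136 tested (7.35%). Of all genes tested in both fits, 1.72% were called higher in Protoplast_60N, so the 1.4% of the last class is near that share. The share called higher in TGA4_60N was 58.1%, 38.7% and 40.9% from the lowest to the highest class, beside 1.8% of all genes tested. Genes lower without replicate 1 gave 26 of 202 tested (12.9%), 11 of 208 and 2 of 60 called lower in Protoplast_60N over the same classes. The share over all genes tested in both was 0.958%. NIR1 (0.08), NIA1 (0.04), NIA2 (-0.09), BT2 (-0.08) and RFNR2 (-0.24) were in the first class, and AT1G05675 (0.90), AT4G22030 (0.99) and AT1G71520 (1.01) in the last. The thresholds were set after the data had been seen.

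**Figure D4:**
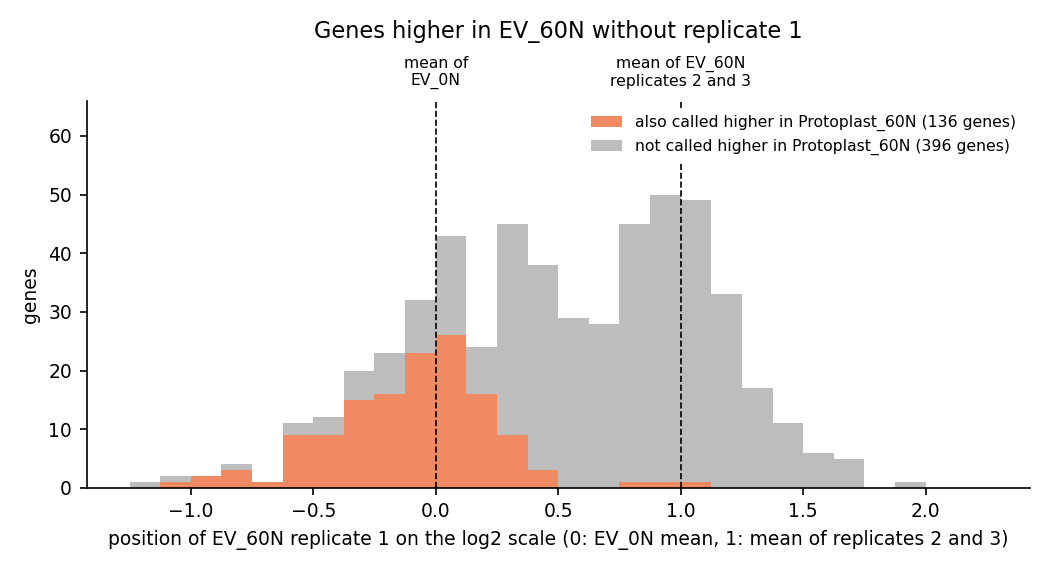
Number of genes (y axis) higher in EV_60N without replicate 1, by where EV_60N replicate 1 fell on the log2 scale between the EV_0N mean (0) and the mean of EV_60N replicates 2 and 3 (1). Genes also called higher in Protoplast_60N (136 of 532, orange, stacked below the others) lie mostly around 0, at the level of EV_0N, and the other genes (grey) spread to 1 and above.

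The difference in N response between EV and Protoplast cells was tested in 1 fit of 14 libraries and called 417 of 19011 genes (2.19%), 321 with a higher and 96 with a lower fold change in EV cells. Without EV_60N replicate 1 it called 311 (232 and 79), of which 268 were the same genes. Without EV_0N replicate 2 it called 125, without EV_60N replicate 3 it called 159, and without EV_60N replicate 2 it called 1302. It called 210 and 221 without Protoplast_60N replicates 2 and 3, and 204 and 212 without Protoplast_0N replicates 3 and 4. The experiment, the CHX and the DEX differ together between the pairs of groups and cannot be told apart. The split of higher and lower calls depended on scaling. With library totals and no TMM factors it was 193 and 382, with a median of -0.24 over all genes, and the EV comparison itself then gave 303 higher and 541 lower, with a median of -0.13.

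The 5 genes with the smallest p on the higher side were as high in EV_60N replicate 1 as in the other EV_60N libraries. AT1G71520, an AP2/ERF-type factor, had 70.6, 56.2 and 86.6 CPM in EV_60N and 25.3, 23.2 and 25.5 CPM in EV_0N, with 81.2 ± 12.1 CPM in Protoplast_60N and 96.9 ± 5.5 CPM in Protoplast_0N (SD, n = 4 each), the values of each experiment being scaled within it. The EV response was 1.78 ± 0.19 above the Protoplast response on the log2 scale (edgeR, adjusted p = 0.00030). AT3G07195, a RIN4 family gene, had 149, 149 and 212 CPM in EV_60N and 66.1, 53.1 and 64.7 CPM in EV_0N. It was lower in Protoplast_60N than in Protoplast_0N (-0.50 ± 0.13, adjusted p = 0.049), and the difference of the responses was 1.98 ± 0.22. AT1G05675 differed by 2.21 ± 0.28, CTF2B, an FAD-dependent oxidoreductase, by 1.34 ± 0.17, and WAKL7, a wall-associated kinase-like gene, by 1.52 ± 0.19.

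The 5 genes with the smallest p on the lower side were MYB4, MS2, FLA5, ATCAD4 and PAL4. MYB4, a repressor of phenylpropanoid genes, had 4.34, 5.78 and 4.87 CPM in EV_60N and 11.4, 12.7 and 13.4 CPM in EV_0N (-1.30 ± 0.21, adjusted p = 0.0017), but was higher in Protoplast_60N than in Protoplast_0N (0.64 ± 0.15, adjusted p = 0.027). The responses differed by -1.93 ± 0.21 (adjusted p = 0.00030). PAL4, a phenylalanine ammonia-lyase, had 36.9, 44.9 and 34.1 CPM in EV_60N and 65.3, 65 and 42.7 CPM in EV_0N, and ATCAD4, a cinnamyl alcohol dehydrogenase, 12.6, 12.2 and 13 CPM in EV_60N and 17.6, 18.4 and 16.9 CPM in EV_0N. PAL4 differed by -1.12 ± 0.20, as did ATCAD4. ATCAD4 alone was not called in EV cells (adjusted p = 0.057), and both were called higher in Protoplast_60N. MS2, a methionine synthase, differed by -1.60 ± 0.22, and FLA5, a fasciclin-like arabinogalactan protein, by -1.85 ± 0.32, with 1.69 to 1.83 CPM in EV_60N and 3.73 to 5.7 CPM in EV_0N. All 10 genes kept their call without EV_60N replicate 1 (adjusted p from 0.00045 to 0.019). By contrast NIR1 and BT2 gave differences of -0.03 and 0.45 between EV and Protoplast cells (adjusted p = 0.99 and 0.90), and 0.48 and 1.00 without replicate 1 (adjusted p = 0.40 and 0.15).

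**Figure D5:**
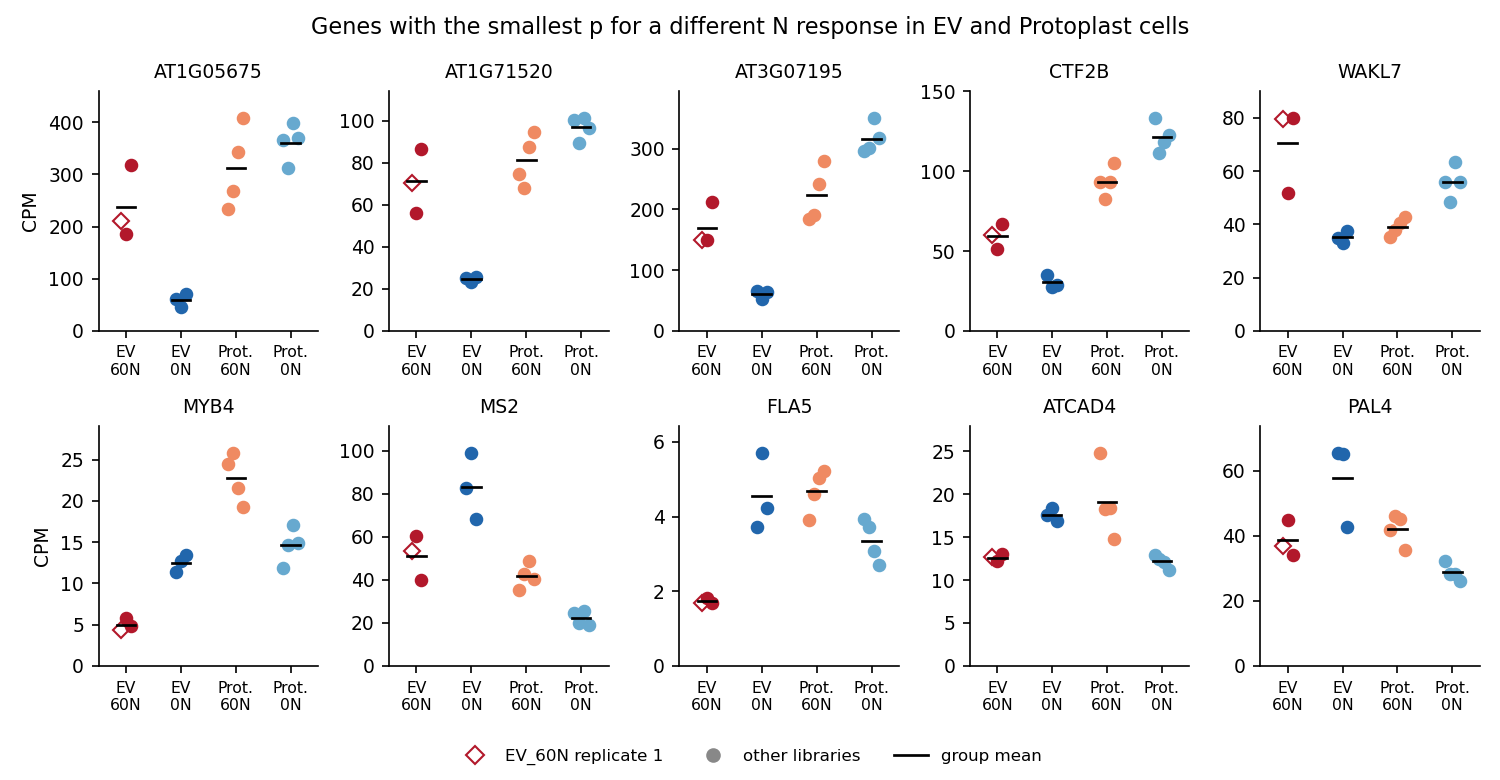
CPM of the 10 genes with the smallest p for a different N response in EV and Protoplast cells, 5 with a higher response in EV (top row) and 5 with a lower one (bottom row), in EV_60N, EV_0N, Protoplast_60N and Protoplast_0N, with group means as bars and the CPM of each experiment scaled within it. EV_60N replicate 1 (open diamonds) lies with the other EV_60N libraries in all 10, for example 4.34 CPM for MYB4 beside 5.78 and 4.87 CPM. The genes were ranked with replicate 1 in the fit, which favours such agreement.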

How the data were processed

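RNA was measured in sorted root protoplasts. The authors aligned reads to TAIR10 with TopHat2 and counted them per gene with GenomicFeatures/GenomicAlignments. The deposited values are raw read counts per gene, 1 table per library, and whether counting used strand is not given in the sources used here. Genes with overlapping or near-identical copies are therefore uncertain. Series processing notes also name DESeq2. The study modelled a batch that the labels do not give, so none was fitted here. Count tables of 12 other libraries were not used.

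Counts were filtered with filterByExpr and scaled with TMM in edgeR 4.0.16 (R 4.3.3). The quasi-likelihood test was fitted with group means over the 18 libraries of the N-dose experiment (7835278 to 16214169 counts each), over 16 root and protoplast libraries for the Protoplast comparison, and over 14 libraries for the test of different responses, with calls at a Benjamini-Hochberg adjusted p under 0.05. Standard errors (SE) were obtained from each log2 fold change and its F statistic. Intervals of counts were not needed, and p-values cover the spread between libraries. The scripts were tested on simulated data. Alternatives were DESeq2 1.42.0, limma 3.58.1 voom with sample weights, a robust fit, RLE factors, no TMM, no filter, a 2-fold minimum, fewer libraries, a replicate block and leaving out each library.

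The labels number replicates alike in each group. Deviations of same-numbered EV_60N and EV_0N libraries from their group means correlated weakly, at 0.156, 0.242 and 0.178. All other pairs were between -0.138 and -0.034. Deviations from a group mean offset each other, so positive same-number values push the other pairs down. Whether the libraries were paired is not given by the labels and was not tested. Same-numbered TGA4 pairs (-0.044 to -0.003) and Protoplast pairs (-0.076 to -0.02) showed no such pattern. The replicate block gives each number an effect shared by all groups of a fit, so it does not test pairing within EV.

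Genes named are the 12 highest and 12 lowest log2 fold changes among called genes whose groups did not overlap and whose mean CPM was at least 2, members of the lists, and the 5 smallest p in each direction for the different response. Members and lists were chosen with earlier results of these data known. Symbols and coordinates came from RefSeq TAIR10.1, whose promoters spanned 250 bases before to 50 after the gene start.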

Additional observations from a re-analysis of the deposited data

Results flagged for a closer look

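The N response differed between EV and Protoplast cells, by the test of the difference itself, in 417 genes. Those named in the report had differences in log2 fold change (EV minus Protoplast) of 2.21 for AT1G05675, 1.78 for AT1G71520, 1.98 for AT3G07195, 1.34 for CTF2B, 1.52 for WAKL7, -1.93 for MYB4, -1.60 for MS2, -1.85 for FLA5, -1.12 for ATCAD4 and -1.12 for PAL4. Presence of CHX and DEX and the experiment cannot be told apart here.

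The total of 1 Protoplast_60N library, at 9.68 M counts (9677719), lay far from the other 3 of its group. It was the only such case among 22 sets of 4 libraries examined, and chance marks about 1 in 20.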

How the results depend on the processing

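The EV comparison called 659 genes. It called 1004 with no filter on low counts, 1730 with voom and sample weights, 193 with a 2-fold minimum, 35 with the 6 EV_60N and EV_0N libraries alone and 90 with the 9 EV libraries. Leaving out 1 library gave 131 (EV_60N replicate 3) to 1004 (EV_60N replicate 1), with 286 and 369 without EV_0N replicates 2 and 3. DESeq2 gave 958, and 760 were called without both EV_60N replicate 1 and EV_0N replicate 3, an alternative chosen after seeing the data. Scaling by library totals gave 844 calls, 303 higher and 541 lower against 421 and 238 with TMM, with the median of all genes at -0.13. The TGA4 comparison (556) gave 880 with no filter, 899 with DESeq2, 2391 with voom, 164 with a 2-fold minimum, 680 (243 higher, 437 lower) without TMM, and 113 to 527 with 1 library left out. The EV against TGA4 difference (0) gave 3 with no filter, 4 with DESeq2 and 1 with voom, and 0 with any library left out. The Protoplast comparison (506) gave 776 without TMM (678 higher, 98 lower), 1017 with DESeq2 (438 higher, 579 lower), 805 with voom, 120 with a 2-fold minimum, and 274 to 492 with 1 library left out. The EV against Protoplast difference (417) gave 874 with DESeq2, 1293 with voom, 201 with a 2-fold minimum, 575 without TMM, and 125 to 1302 with 1 library left out. The cause was not tested beyond what each setting changes. A replicate block gave 714 EV calls (431 higher, 283 lower), 585 TGA4 calls, 404 Protoplast calls and 572 for the EV against Protoplast difference, and with EV_60N replicate 1 also left out, chosen after seeing the data, 992 EV calls. The block moved no count by over 1.5 times. Of 269 listed or named genes, the block called 10 more and lost 1, leaving out EV_60N replicate 1 called 38 more and lost 4, and the 6-library fit lost 80. None changed direction under an alternative while called.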

Other observations

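Among the 50 genes more than 2-fold higher in EV_0N replicate 3 than in each of the other 5 EV_60N and EV_0N libraries, 3 are given here, chosen after their values had been seen. RHD6, a root hair regulator, had 10.7, 8.0 and 16.7 CPM in EV_60N and 10.2, 18.2 and 58.7 CPM in EV_0N. WES1, an auxin-conjugating enzyme, had 30.6, 22.0 and 34.8 CPM in EV_60N and 45.2, 61.7 and 133 CPM in EV_0N. IAA7, an auxin-response repressor, had 13.8, 4.89 and 11.4 CPM in EV_60N and 9.97, 12.4 and 28.9 CPM in EV_0N. In each of these genes EV_0N replicates 1 and 2 were much nearer the EV_60N libraries than replicate 3 was.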
